A study of Mus musculus with 6 samples.

Results

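The cluster of miR-322, miR-503, miR-351, miR-450 and miR-542 is a group of X-linked microRNA (miRNA) hairpins that lie close together on the same strand. Its 8 mature members were taken by name from the deposited table: mmu-miR-322-5p, mmu-miR-322-3p, mmu-miR-503-5p, mmu-miR-351-5p, mmu-miR-450a-5p, mmu-miR-450b-5p, mmu-miR-542-3p and mmu-miR-542-5p. All 8 were present, among 1081 entries in all. The libraries are small RNA-seq of kidney inner medulla, the deepest zone of the kidney, from 3 DicerAQP2Cre+ mice and 3 control mice, all 1 month old. DicerAQP2Cre+ mice are designed to lack Dicer1 in cells that express aquaporin-2, the vasopressin-regulated water channel made by principal cells of the collecting duct. The control is labelled only as control, and the labels give no further alleles, strain or sex. The Cre is directed to cells that express aquaporin-2, and where it acted was not measured here. Cell types of the inner medulla that it did not reach still have Dicer1 and can still make miRNAs in both groups. Dicer1 mRNA is not measured by this assay.

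Dicer cuts precursor hairpins into a duplex of a 5p and a 3p arm, and usually the arm loaded into Argonaute accumulates while its partner is degraded. A loaded miRNA finds its targets chiefly through its seed, the bases 2 to 8 from the 5′ end. miR-322 and miR-503 are growth-linked miRNAs that repress cyclins and other drivers of the cell cycle in differentiating muscle cells, and miR-322 shares its seed with the miR-15/16 family, known for the same targets. miR-351 shares its seed with miR-125a and miR-125b, relatives of the worm lin-4 miRNA.

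The mature sequences below are shown because they set which members can be compared through a shared seed. They come from RefSeq (GRCm38.p6), where 8 of 8 members matched by name, as did 916 of the 1081 entries, and they are written 5′ to 3′ with the seed in capitals.
mmu-miR-322-5p: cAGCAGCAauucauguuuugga
mmu-miR-503-5p: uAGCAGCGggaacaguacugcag
mmu-miR-322-3p: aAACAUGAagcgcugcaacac
mmu-miR-351-5p: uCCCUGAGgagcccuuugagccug
mmu-miR-450a-5p: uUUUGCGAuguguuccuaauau
mmu-miR-450b-5p: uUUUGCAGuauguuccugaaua
mmu-miR-542-5p: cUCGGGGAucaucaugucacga
mmu-miR-542-3p: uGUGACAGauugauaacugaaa

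The 8 members carried 8 different seeds, so none of them was a copy of another at bases 2 to 8. Counted from 1 at the 5′ end of miR-322-5p, miR-503-5p differed from it at the first base (C1U) and at the last seed base (A8G), and 11 of 22 positions were identical. miR-450a-5p and miR-450b-5p were identical in 15 of 22 positions and first differed inside the seed (G7A, with miR-450a-5p first). Of the 8 members 5 began with U, the base most often found at the 5′ end of loaded miRNAs, and these were miR-503-5p, miR-351-5p, miR-450a-5p, miR-450b-5p and miR-542-3p.

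The Mir322 and Mir542 hairpins are shown whole, with both annotated arms in capitals, because both of their arms are members and are compared within a library. Both lie on the minus strand of GRCm38.p6, the first at chrX:53054255-53054349 and the second at chrX:53049403-53049487.
Mir322: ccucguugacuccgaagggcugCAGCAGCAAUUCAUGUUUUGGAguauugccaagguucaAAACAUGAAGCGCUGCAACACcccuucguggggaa
Mir542: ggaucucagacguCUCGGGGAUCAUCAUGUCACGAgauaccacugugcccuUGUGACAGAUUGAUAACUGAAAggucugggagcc

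In the GRCm38 annotation (GENCODE M21) the 7 hairpins spanned 6353 bases, in the order Mir322, Mir503, Mir351, Mir542, Mir450-2, Mir450-1 and Mir450b along the direction of transcription. Mir503 began 200 bases after the end of Mir322 and Mir351 began 630 bases after Mir503. A gap of 3767 bases, which holds the noncoding gene Gm28730, separated this upstream trio from Mir542. None of the 7 lay inside a protein-coding gene, and the nearest annotated gene upstream on the same strand was C430049B03Rik, a noncoding transcript. miR-450a-5p has the same mature sequence in Mir450-1 and Mir450-2, so its reads could not be assigned to either hairpin.

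The values below are normalized reads, that is, recovered reads divided by the authors' size factor for each library. The table held 2934851 to 7614853 recovered reads per library in DicerAQP2Cre+ mice and 4924091 to 6780624 in control mice. DicerAQP2Cre+ replicate 2 was the shallowest library, where 1 read was worth 1.96 normalized reads. DicerAQP2Cre+ replicate 3 scored 12.5 on the second principal component, far from the scores of -5.11 to -0.874 of the other 5 libraries, so member results that turn on it are also given without it. The columns of the DicerAQP2Cre+ mice carry a short name (CK01 to CK03) that was read as conditional knockout, and every direction rests on that reading. In bulk tissue, fewer cells of a type and less of a miRNA per cell cannot be told apart.

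**Figure D1:**
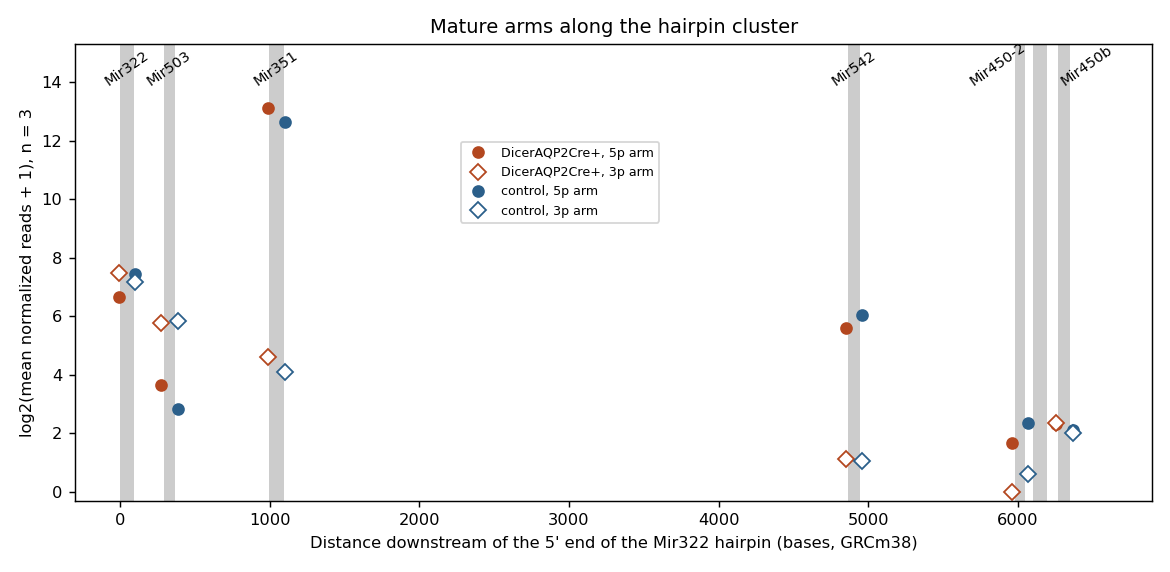
Mean normalized reads of each mature arm, as log2(mean + 1) over 3 libraries per group, against the position of its hairpin downstream of Mir322 (grey bars, GRCm38), with DicerAQP2Cre+ points set slightly left of control points. miR-450a-5p is drawn at Mir450-2 only, although Mir450-1 gives the same sequence. miR-351-5p stands far above every other arm in both groups, and the 3 most downstream hairpins (Mir450-1 has no label) lie near the bottom.

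The cluster was dominated by miR-351-5p. It had 10118, 8148 and 8546 normalized reads in DicerAQP2Cre+ replicates 1 to 3, against 5583, 6257 and 7105 in control replicates 1 to 3. It was the entry of rank 38 in the table by mean, and it made up 95.2% to 96.9% of the members' summed reads in DicerAQP2Cre+ mice and 93.3% to 94.7% in control mice. The members together held 0.185%, 0.147% and 0.154% of all miRNA reads in DicerAQP2Cre+ replicates 1 to 3, against 0.115%, 0.135% and 0.158% in control replicates 1 to 3. These shares overlapped between the groups through control replicate 3, which was above DicerAQP2Cre+ replicates 2 and 3. Read counts of different miRNAs are also shaped by how well each sequence is ligated and amplified, so levels across members describe reads of 21 to 24 base RNAs and not molecules.

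Members were compared between genotypes with limma on log2(value + 1), fitted to the 461 entries with a mean of at least 5 normalized reads, with 0.05 as the limit on the Benjamini-Hochberg adjusted p for a call. Of the 8 members 5 passed that filter on low values. None of the 5 was called by limma: 0 were lower, against 4.99% of all tested entries called lower, and 0 were higher, against 3.47% called higher. At an unadjusted limma p under 0.05, 1 member was lower (15% of all tested entries) and 1 was higher (13%). edgeR and DESeq2 on the recovered reads also called 0 of the 5, where they called 9.11% and 13% of all tested entries, and DESeq2 gave no adjusted p for miR-503-5p. The 5 members had 2 log2 fold changes below 0 and 3 above, with a median of 0.16, beside a median of -0.01 over all tested entries. Their values did not overlap between the groups for 2 that were lower, against 18% of all tested entries, and for 1 that was higher, against 15.6%.

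**Figure D2:**
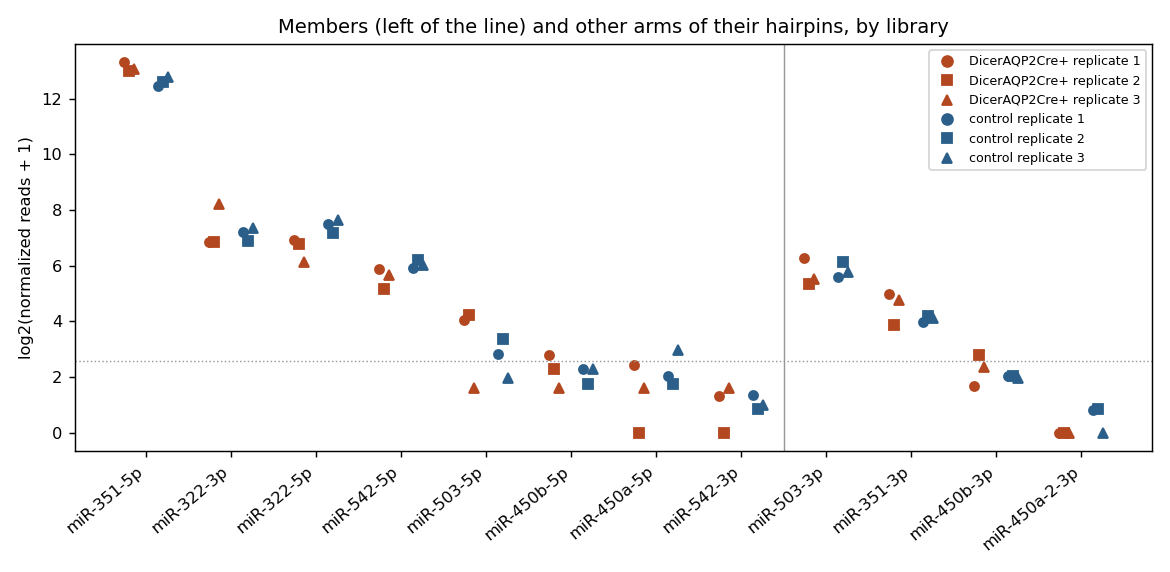
Normalized reads as log2(value + 1) for the 8 members and for the other arms of their hairpins, with each library as a point and DicerAQP2Cre+ libraries left of control libraries. The dotted line marks 5 normalized reads, the mean an entry needed to be tested. miR-351-5p and miR-322-5p show no overlap between the groups and lie in opposite directions, while miR-450b-5p, miR-450a-5p and miR-542-3p lie at or below the dotted line in most libraries.

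miR-351-5p, the most abundant member, had more normalized reads in all 3 DicerAQP2Cre+ libraries than in any control library. As a share of all recovered reads the groups overlapped. Control replicate 3, with 7342 of 4924091 reads, was above DicerAQP2Cre+ replicates 2 (4158 of 2934851) and 3 (8365 of 5694159). The mean of miR-351-5p was 8937 ± 1042 normalized reads in DicerAQP2Cre+ mice and 6315 ± 763 in control mice (SD, n = 3 each), a ratio of means of 1.42. The limma log2 fold change of 0.50 ± 0.19 (SE, 95% interval 0.08 to 0.92) did not pass over all entries (limma adjusted p = 0.124). The spread between libraries was 11.7% of the mean in DicerAQP2Cre+ mice and 12.1% in control mice, larger than the counting error of 1.20% and 1.15%. Without DicerAQP2Cre+ replicate 3 the fold change was 0.53 and passed (limma adjusted p = 0.0492), and with equal totals it was 0.29 (limma adjusted p = 0.377). These were the lowest and highest adjusted p over all settings tried.

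miR-322-5p, the member with the miR-15/16 seed, lay in the other direction. It had 119.8, 109.7 and 69.5 normalized reads in DicerAQP2Cre+ replicates 1 to 3, against 180.0, 142 and 199 in control replicates 1 to 3. Every DicerAQP2Cre+ library was below every control library, and DicerAQP2Cre+ replicate 3 was the lowest of all. The means were 99.7 ± 26.6 in DicerAQP2Cre+ mice and 174 ± 29.0 in control mice (SD, n = 3 each), with a limma log2 fold change of -0.82 ± 0.28 (95% interval -1.44 to -0.20, adjusted p = 0.0973), which did not pass. With all libraries set to equal totals it was lower at -1.03 (limma adjusted p = 0.0388), a scaling that moved the median of all tested entries to -0.21; over all settings the adjusted p ranged from 0.0388 to 0.277.

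miR-322-3p, the partner arm on the same hairpin, did not follow miR-322-5p. It had 115.4, 115.6 and 300.4 normalized reads in DicerAQP2Cre+ replicates 1 to 3, against 148, 119 and 163 in control replicates 1 to 3. DicerAQP2Cre+ replicate 3 alone held the high value, and the other 2 libraries of its group were below all 3 control libraries. The limma log2 fold change was 0.16 ± 0.37 (95% interval -0.65 to 0.98, adjusted p = 0.797), and it was -0.29 without DicerAQP2Cre+ replicate 3 and -0.05 with equal totals. The spread between DicerAQP2Cre+ libraries was 60.3% of the mean, against a counting error of 9.44%.

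The ratio of the 2 arms within a library does not depend on how libraries are scaled. miR-322-3p reads divided by miR-322-5p reads gave 0.963, 1.05 and 4.32 in DicerAQP2Cre+ replicates 1 to 3, against 0.821, 0.834 and 0.816 in control replicates 1 to 3. The control libraries were nearly alike, all 3 DicerAQP2Cre+ libraries were higher, and DicerAQP2Cre+ replicate 3 was far above the rest. On the log2 scale with 1 added to each value the ratio averaged 0.71 ± 1.21 in DicerAQP2Cre+ mice and -0.28 ± 0.02 in control mice (SD, n = 3 each). For the difference of 0.98 the two-sided exact permutation test gave p = 0.1, which 3 against 3 libraries cannot go below, and 0.175 after adjustment over the 7 ratios and shares compared. Without DicerAQP2Cre+ replicate 3 the difference was 0.29, and the groups still did not overlap.

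**Figure D3:**
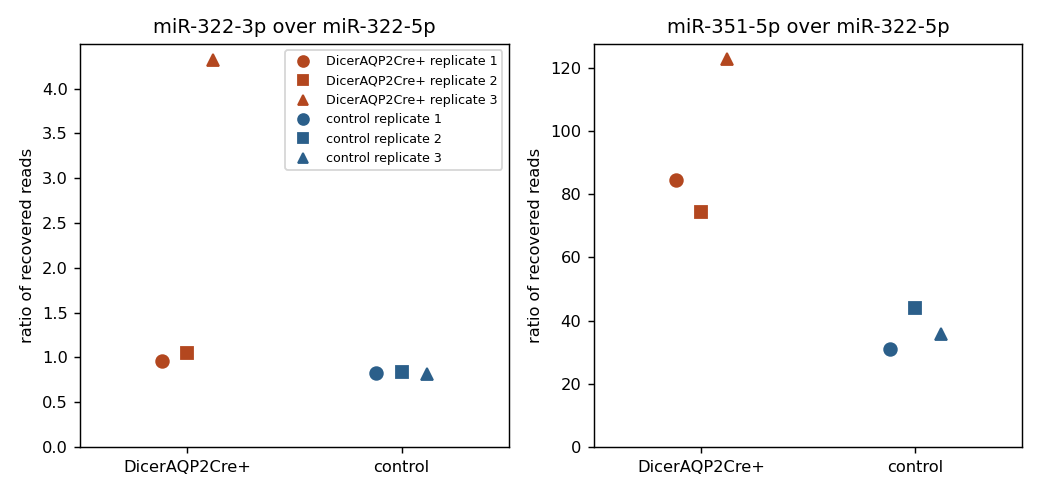
Ratio of recovered reads of miR-322-3p to miR-322-5p (left) and of miR-351-5p to miR-322-5p (right) in each library, with DicerAQP2Cre+ libraries left of control libraries on linear axes from 0. Control libraries lie between 0.816 and 0.834 on the left, and all 3 DicerAQP2Cre+ libraries lie above all control libraries in both plots. On the right this follows from the separation of each miRNA on its own.

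miR-351-5p and miR-322-5p come from hairpins whose starts lie 996 bases apart and differed in direction, so their ratio was compared as well, a choice made after the values were seen. miR-351-5p had 84.4, 74.2 and 123 reads for each miR-322-5p read in DicerAQP2Cre+ replicates 1 to 3, against 31.0, 44.0 and 35.6 in control replicates 1 to 3. The groups did not overlap. This was fixed beforehand, since miR-351-5p was higher and miR-322-5p lower in every DicerAQP2Cre+ library than in any control library. The log2 ratio averaged 6.50 ± 0.37 in DicerAQP2Cre+ mice and 5.18 ± 0.25 in control mice (SD, n = 3 each), a difference of 1.32 (two-sided exact permutation p = 0.1, 0.175 adjusted over the 7), again the lowest value possible. That p follows from the same separation, so the ratio is no separate result. Leaving out each library in turn gave differences between 1.11 and 1.47.

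miR-351-3p, the low partner of miR-351-5p and no member of the list, had 30.3, 13.7 and 26.6 normalized reads in DicerAQP2Cre+ replicates 1 to 3, against 14.6, 17.3 and 16.5 in control replicates 1 to 3. The groups overlapped through DicerAQP2Cre+ replicate 2, where the value rested on 7 reads. Its limma log2 fold change was 0.45 ± 0.37 (95% interval -0.38 to 1.28, adjusted p = 0.458). miR-351-5p held 99.7% of the reads of its hairpin in both groups, and the log2 ratio of the arms averaged 8.57 ± 0.47 in DicerAQP2Cre+ mice and 8.52 ± 0.13 in control mice (SD, n = 3 each, exact two-sided permutation p = 1).

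miR-542-5p had 57.7, 35.3 and 50.1 normalized reads in DicerAQP2Cre+ replicates 1 to 3, against 59.2, 72.3 and 64.8 in control replicates 1 to 3. The groups did not overlap, but DicerAQP2Cre+ replicate 1, with 78 recovered reads, and control replicate 1, with 77, came close to each other. The means were 47.7 ± 11.4 in DicerAQP2Cre+ mice and 65.5 ± 6.57 in control mice (SD, n = 3 each). The limma log2 fold change was -0.47 ± 0.28 (95% interval -1.10 to 0.15, adjusted p = 0.306) and did not pass.

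Its partner miR-542-3p, described in human cells as a repressor of the apoptosis inhibitor survivin, was near the detection floor of 3 reads. It had 2, 0 and 2 recovered reads in DicerAQP2Cre+ replicates 1 to 3, against 2, 1 and 1 in control replicates 1 to 3. The reads of the Mir542 hairpin shown above thus came almost wholly from its 5p arm. miR-542-5p made up 97.3% of the hairpin's reads in DicerAQP2Cre+ mice (95% exact binomial interval 93.3% to 99.3%) and 98.3% in control mice (95.8% to 99.5%), over the summed reads of each group and for counting error only. The log2 ratio of the arms averaged 4.60 ± 0.56 in DicerAQP2Cre+ mice and 4.997 ± 0.40 in control mice (SD, n = 3 each, exact two-sided permutation p = 0.4, 0.56 adjusted over the 7), and with so few miR-542-3p reads it depends on the value added.

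miR-503-5p, whose hairpin is next to Mir322, had 15.5, 17.6 and 2.04 normalized reads in DicerAQP2Cre+ replicates 1 to 3, against 6.15, 9.43 and 2.90 in control replicates 1 to 3. The first 2 DicerAQP2Cre+ libraries were the highest of all 6 and the third was the lowest. These values rested on 21, 9 and 2 recovered reads in DicerAQP2Cre+ mice and on 8, 12 and 3 in control mice. The limma log2 fold change was 0.56 ± 0.71 (95% interval -1.01 to 2.13, adjusted p = 0.662), and single libraries moved it widely. It was 1.41 without DicerAQP2Cre+ replicate 3 (limma adjusted p = 0.0663). Leaving out DicerAQP2Cre+ replicate 2 gave 0.098, and leaving out DicerAQP2Cre+ replicate 1 or control replicate 3 gave 0.18. Its interval spans both directions, so no difference was detectable at this depth.

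More reads of the Mir503 hairpin came from miR-503-3p than from miR-503-5p in every library. miR-503-3p, which is no member of the list, had 76.2, 39.2 and 44.95 normalized reads in DicerAQP2Cre+ replicates 1 to 3, against 46.9, 69.2 and 53.2 in control replicates 1 to 3. The groups overlapped, and the limma log2 fold change was -0.12 ± 0.32 (95% interval -0.83 to 0.59, adjusted p = 0.820), with 0.00289 by edgeR, so its sign depended on the tool. Of the hairpin's reads 83.9% were miR-503-3p in DicerAQP2Cre+ mice (95% exact binomial interval 78.1% to 88.7%) and 89.9% in control mice (85.2% to 93.5%). These intervals pool the reads of each group and cover counting error only, not the spread between libraries. By library, miR-503-3p had 4.90, 2.22 and 22 reads for each miR-503-5p read in DicerAQP2Cre+ replicates 1 to 3. The control replicates 1 to 3 had 7.625, 7.33 and 18.3. The log2 ratio of miR-503-3p to miR-503-5p averaged 2.42 ± 1.41 in DicerAQP2Cre+ mice and 3.10 ± 0.61 in control mice (SD, n = 3 each, exact two-sided permutation p = 0.5, 0.583 adjusted over the 7). The difference of -0.68 became -1.43 without DicerAQP2Cre+ replicate 3 and -0.027 without DicerAQP2Cre+ replicate 2.

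The members from the downstream hairpins were too rare to test. miR-450a-5p had 6, 0 and 2 recovered reads in DicerAQP2Cre+ replicates 1 to 3, against 4, 3 and 7 in control replicates 1 to 3. Its 0 in DicerAQP2Cre+ replicate 2 still allows 3 reads, or 5.88 normalized reads, which is above the value of each other DicerAQP2Cre+ library. miR-450b-5p had 8, 2 and 2 recovered reads in DicerAQP2Cre+ replicates 1 to 3, against 5, 3 and 4 in control replicates 1 to 3. For both miRNAs, as for miR-542-3p, the groups overlapped and no difference was detectable at this depth. The other listed arms of these hairpins, miR-450b-3p and miR-450a-2-3p, had at most 4 reads in any library.

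**Figure D4:**
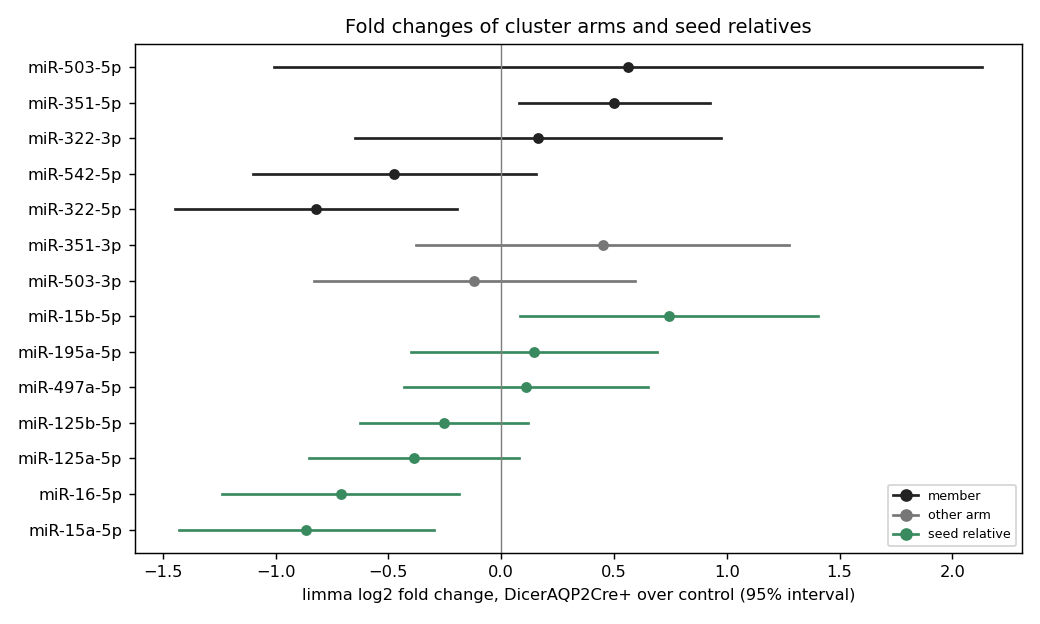
limma log2 fold changes, DicerAQP2Cre+ over control, with 95% intervals from the fit over all 461 tested entries (n = 3 libraries per group). The 5 tested members (black) range from -0.82 for miR-322-5p to 0.56 for miR-503-5p, and the seed relatives (green) lie on both sides of 0.

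Other entries with the same seed were compared because targets cannot tell them apart through bases 2 to 8. miR-322-5p shares its seed with 5 further entries, miR-15a-5p, miR-15b-5p, miR-16-5p, miR-195a-5p and miR-497a-5p, and miR-351-5p shares its seed with miR-125a-5p and miR-125b-5p. The most abundant of these are shown with the seed in capitals.
miR-16-5p: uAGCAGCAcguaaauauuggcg
miR-15b-5p: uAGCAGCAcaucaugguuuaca
miR-125a-5p: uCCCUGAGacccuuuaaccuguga
miR-125b-5p: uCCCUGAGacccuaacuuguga
Outside the seed they differ: miR-351-5p was identical to miR-125a-5p in 10 of 24 positions, and miR-322-5p to miR-15b-5p in 16 of 22. miR-542-5p had 1 relative with the same seed, miR-6966-5p, with a mean below 1 normalized read in both groups. The other 5 members had none among the entries matched to a sequence.

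Of the 7 seed relatives tested, limma called 0 lower and 0 higher, against 4.99% and 3.47% of all tested entries. At an unadjusted limma p under 0.05, 2 were lower and 1 higher, against 15% and 13% of all tested entries. edgeR called 0 and DESeq2 called 1, miR-15a-5p, against 9.11% and 13% of all tested entries. miR-16-5p had 1706, 1695 and 1189 normalized reads in DicerAQP2Cre+ replicates 1 to 3, against 1994, 2479 and 3057 in control replicates 1 to 3. Like miR-322-5p it was below every control library in all 3 DicerAQP2Cre+ libraries, with a limma log2 fold change of -0.71 ± 0.24 (adjusted p = 0.0918), and it passed only with equal totals (-0.92, limma adjusted p = 0.0388) and at a threshold of 0.1.

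miR-15b-5p, made from the same primary transcript as one of the miR-16 copies, had 2447, 2050 and 1152 normalized reads in DicerAQP2Cre+ replicates 1 to 3, against 1267, 1174 and 826 in control replicates 1 to 3. The groups overlapped through DicerAQP2Cre+ replicate 3. Its limma log2 fold change was 0.74 ± 0.30 (adjusted p = 0.135), and without DicerAQP2Cre+ replicate 3 it was 1.06 and passed (adjusted p = 0.00296). miR-15a-5p, named after its values were seen, had a limma log2 fold change of -0.86 ± 0.26 (adjusted p = 0.0641), and DESeq2 called it lower (adjusted p = 0.0260). limma called it lower with equal totals (-1.07, adjusted p = 0.0216), with a filter at a mean of 50 (adjusted p = 0.0458), at a threshold of 0.1 and without DicerAQP2Cre+ replicate 3 (-0.72, adjusted p = 0.0417), and its highest adjusted p over all settings was 0.197. miR-195a-5p and miR-497a-5p, named to complete the list, had log2 fold changes of 0.15 and 0.11 with overlapping groups (limma adjusted p = 0.743 and 0.796), and both were below 0 with equal totals.

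The summed reads of the 6 entries with the miR-322-5p seed were 5439, 4968 and 3236 in DicerAQP2Cre+ replicates 1 to 3, against 4778, 4900 and 4994 in control replicates 1 to 3. miR-322-5p supplied 2.20%, 2.21% and 2.15% of them in DicerAQP2Cre+ replicates 1 to 3, against 3.77%, 2.90% and 3.99% in control replicates 1 to 3. It was thus a small part of its seed pool in every library, and its share was 1.37 percentage points lower in DicerAQP2Cre+ mice without overlap (exact two-sided permutation p = 0.1, 0.175 adjusted over the 7, n = 3 each). This share was not planned. It reuses the miR-322-5p values given above, so its separation is not independent of theirs.

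miR-351-5p was likewise a small part of its own pool. It supplied 5.14%, 4.66% and 3.29% of the reads with its seed in DicerAQP2Cre+ replicates 1 to 3, against 2.29%, 2.52% and 2.35% in control replicates 1 to 3. The groups did not overlap, and the mean was 4.36 ± 0.96% in DicerAQP2Cre+ mice and 2.39 ± 0.12% in control mice (SD, n = 3 each, exact two-sided permutation p = 0.1, 0.175 adjusted over the 7). That share was not planned either, and its separation is not independent of the miR-351-5p values it reuses. miR-125a-5p, the main source of that pool, had 169027, 149829 and 233820 normalized reads in DicerAQP2Cre+ replicates 1 to 3, against 217379, 221535 and 274411 in control replicates 1 to 3, with a limma log2 fold change of -0.39 ± 0.21 (adjusted p = 0.258). Without DicerAQP2Cre+ replicate 3 it was -0.57 and passed (limma adjusted p = 0.0417). miR-125b-5p had 17246 ± 589 in DicerAQP2Cre+ mice and 20550 ± 301 in control mice, with no overlap, and its log2 fold change was -0.25 ± 0.17 (limma adjusted p = 0.347).

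**Figure D5:**
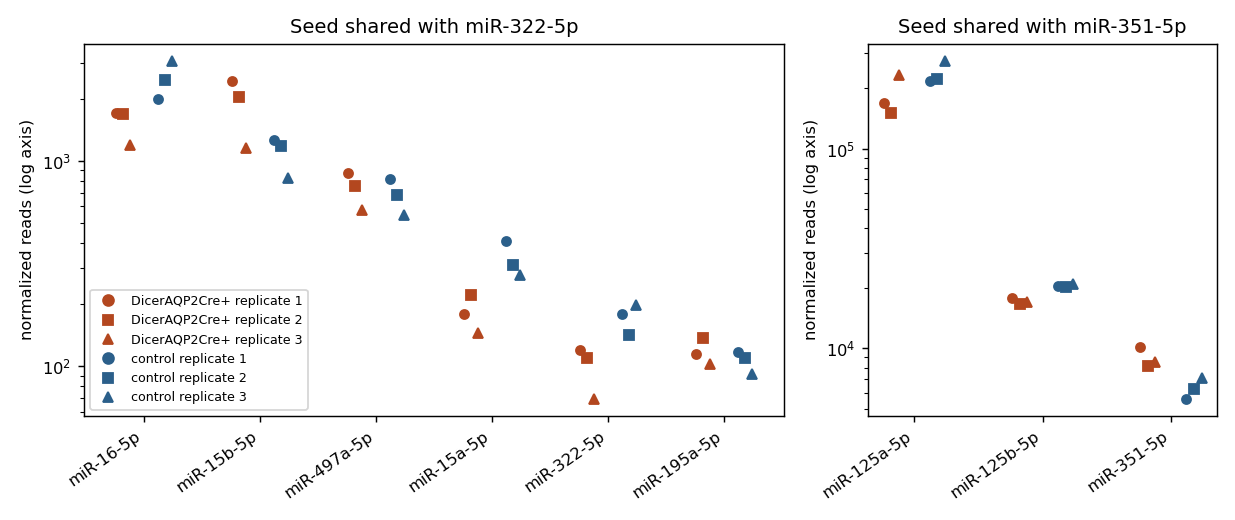
Normalized reads on a log axis of every tested entry with the seed of miR-322-5p (left) or of miR-351-5p (right), with each library as a point and DicerAQP2Cre+ libraries left of control libraries. miR-351-5p lies higher in DicerAQP2Cre+ libraries while miR-125b-5p lies lower, and miR-15b-5p and miR-16-5p differ in direction.

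The entries whose profile over the 6 libraries was most like that of miR-351-5p were sought by the root mean square difference between log2 profiles centred on their own means. The closest 5 outside the cluster were miR-342-5p (0.08), miR-671-5p (0.12), miR-1981-5p (0.12), miR-673-5p (0.13) and miR-100-5p (0.14), against a median of 0.52 over the 454 tested entries outside the cluster. Each of these 5 had a log2 fold change above 0, between 0.25 and 0.61, and none was called by limma. Their shared direction follows from choosing them by likeness to miR-351-5p and is no separate result. Within the cluster miR-351-3p was the nearest at 0.28, rank 47 of 460, and miR-322-5p stood at 0.71, rank 357 of 460. The other member profiles lay at 0.52 for miR-542-5p, 0.54 for miR-322-3p and 0.96 for miR-503-5p. Counting error adds to such a distance. For miR-503-5p it was 46.9% in DicerAQP2Cre+ mice and 42.5% in control mice, against 1.20% and 1.15% for miR-351-5p.

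Among 9 miRNAs of other imprinted or growth-linked loci (miR-675, miR-483, miR-335, miR-296 and miR-298 arms), 7 were tested and limma called 0 lower and 0 higher, with a median log2 fold change of -0.07. Over all tested entries limma called 4.99% lower and 3.47% higher. At an unadjusted limma p under 0.05 there were 0 lower and 1 higher, against 15% and 13% of all tested entries. edgeR and DESeq2 called 0, against 9.11% and 13% of all tested entries. DESeq2 gave no adjusted p for 3 of the 7, miR-483-5p among them. miR-298-5p and miR-296-5p, the most abundant of them, had log2 fold changes of -0.26 ± 0.20 and -0.11 ± 0.21 (limma adjusted p = 0.409 and 0.774). miR-483-5p, from an intron of Igf2 and named after its values were seen, had 13.3, 17.6 and 9.19 normalized reads in DicerAQP2Cre+ replicates 1 to 3, against 7.69, 5.50 and 2.90 in control replicates 1 to 3 (limma log2 fold change 1.21 ± 0.47, adjusted p = 0.130).

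Some markers of the cell types in the tissue moved with genotype in the same libraries, where limma called 4.99% of all tested entries lower and 3.47% higher. All 5 epithelial markers, the 3p arms of the miR-200 family, fell by limma, and their summed level was 7133 to 10776 normalized reads in DicerAQP2Cre+ mice and 16704 to 17708 in control mice. Of 7 stromal and smooth muscle markers 6 were tested and 2 rose, miR-214-3p and miR-145a-5p. The summed level of all 7 was 27631 to 39954 in DicerAQP2Cre+ mice and 23301 to 24544 in control mice. Most of that sum was miR-143-3p, with a mean of 24153 in DicerAQP2Cre+ mice and 19328 in control mice. It was higher without overlap but was not called (limma log2 fold change 0.31, adjusted p = 0.315). Summed levels overlapped between the groups for 2 endothelial markers (830 to 1245 in DicerAQP2Cre+ mice, 961 to 1229 in control mice), 4 leukocyte markers (15922 to 38104 and 12167 to 35214) and 3 erythroid markers (66039 to 98714 and 84624 to 147220), with 0 called among the 2, 3 and 2 tested. The leukocyte sum was almost wholly miR-150-5p (15893 to 38097 in DicerAQP2Cre+ mice, 12156 to 35203 in control mice). The erythroid sum was almost wholly miR-486a-5p (66025 to 98694 and 84598 to 147189). These 2 sums therefore say little about the other markers of their lists. Log2 fold changes were above 0 for the 3 tested leukocyte markers and below 0 for the 2 endothelial and 2 erythroid ones. Of 5 striated muscle markers 2 had a value, with a sum of 26.6 to 47.0 in DicerAQP2Cre+ mice and 32.9 to 48.7 in control mice. The part of these cell types in the member values was not tested.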

How the data were processed

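The authors deposited 1 table of normalized read counts per mature miRNA, a signal per library that is not a raw count. RNA was isolated by RNeasy Micro Kit and libraries were made by a TruSeq small-RNA protocol, per the labels' protocols; FastQC 0.11.3, DESeq2 and genome build mm9 are named, per the submitters' processing notes. Which aligner, counter and miRNA release were used was not given in the sources used here. Every deposited value was a whole multiple of 1 value per library (100% within 0.01 read), so whole reads were recovered.

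The main test was a trended limma fit (version 3.58.1 in R 4.3.3) of log2(value + 1), with all 6 libraries and no replicate block, over 461 entries with a mean of at least 5; 620 entries fell below. Fold changes on that scale understate the change of low entries. Tests were two-sided. The fits were tested on simulated data. Alternatives were pseudocounts of 0.5 and 5, no filter or a mean of 50, equal totals, TMM, no trend, a replicate block, a threshold of 0.1, edgeR 4.0.16 and DESeq2 1.42.0 on recovered reads, and leaving out each library. Ratios and shares were compared by exact permutation (scipy 1.17.1), and only the ratios of the Mir322 and Mir542 arms were planned. Floors of 3 reads and binomial intervals cover counting error only. The design gives the samples as separate mice. The libraries of a group differed by more than sampling noise (chi-square per degree of freedom of at least 89.8).

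The members and lists were chosen with earlier results of these data known. Named miRNAs were all members, the other arms of their hairpins, the 2 most abundant relatives of each shared seed, the 2 most abundant growth-linked miRNAs, any of these lists that passed, and the 5 profiles most like the most abundant member; others are marked where named.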

Additional observations from a re-analysis of the deposited data

How the results depend on the processing

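Against 0 members called lower and 0 higher, 1 was called lower (miR-322-5p) with equal totals and at a threshold of 0.1, and leaving out single libraries gave 0 to 1 higher, the 1 being miR-351-5p without DicerAQP2Cre+ replicate 3. miR-322-5p had a log2 fold change of -1.03 with equal totals and -0.82 at the threshold of 0.1; leaving out single libraries gave -0.97 to -0.58. miR-351-5p was 0.29 with equal totals. It ranged from 0.41 to 0.59, miR-542-5p from -0.62 to -0.28 and miR-322-3p from -0.29 to 0.39 when single libraries were left out, and miR-322-3p stood at -0.047 with equal totals. The signs of miR-322-5p, miR-351-5p and miR-542-5p held in every setting run, and that of miR-503-5p in all but the filter at a mean of 50, which removes it. Of entries outside the list, miR-503-3p was 0.00289 by edgeR and ranged from -0.40 to 0.071 without single libraries, miR-195a-5p was -0.064 and miR-497a-5p -0.10 with equal totals, and miR-497a-5p ranged from -0.042 to 0.28 without single libraries. The log2 ratio of miR-351-5p to miR-351-3p differed by -0.22 to 0.20 without single libraries. Equal totals moved the median of all tested entries to -0.21 and edgeR to 0.10, against -0.01. The normalized totals were 5.63e+06, 5.75e+06 and 5.82e+06 in DicerAQP2Cre+ replicates 1 to 3, against 5.21e+06, 4.88e+06 and 4.77e+06 in control replicates 1 to 3. Setting them equal thus lowers DicerAQP2Cre+ values relative to control values. The cause of the difference in totals, and that of the edgeR shift, was not tested. Same-numbered libraries did not pair (correlations of their deviations -0.059, 0.0054 and 0.055), and with the replicate block 0 members were called; miR-322-5p then had a limma adjusted p of 0.149 and miR-351-5p of 0.158. With 3 libraries per group depth limited miR-450a-5p, miR-450b-5p, miR-542-3p and miR-503-5p, all under 22 reads in every library.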
